A study of Mus musculus with 6 samples.

Results

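Ceramides are made in keratinocytes, packed into lamellar granules and secreted, and with cholesterol and fatty acids they form the lipid barrier of the skin. This account follows 35 mouse genes of that pathway through chemically induced skin tumours. They were taken as a fixed list of enzymes, transporters and cofactors and sorted by step: 12 genes of ceramide synthesis, 3 that add a head group to ceramide, 9 of acylceramide and barrier lipid handling, 6 of sphingolipid breakdown and 5 of sphingosine phosphate metabolism. All 35 were measured, out of 18193 genes on the array. Each gene is represented by its brightest probe set, taking the mean of all 6 arrays.

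The EKO group was 3 mice deficient in E-FABP, the epidermal fatty acid binding protein encoded by Fabp5, and the WT group was 3 wild-type mice. Both groups had received DMBA, a carcinogen, and TPA, a phorbol ester that promotes tumour growth, for 5 months, so no untreated skin stands beside them. Tumours were digested to single cells and 1 Affymetrix 3' array was run per mouse. The sources used here do not give strain, sex, age, the kind of deletion, or whether several tumours of a mouse were pooled. The design text speaks of tumour cells and the sample labels of keratinocytes.

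The values are log2 signals after RMA, in which a difference of 1 is a doubling. Signals of different probe sets are not on a common scale, so levels were compared between arrays and never between genes. Fabp5 read 8.21, 8.30 and 7.98 in the EKO arrays against 14.82, 14.94 and 14.80 in the WT arrays, so all 6 arrays matched their labels. Of the keratinocyte markers, the basal keratin Krt14 lay between 14.70 and 14.74 in EKO and between 14.66 and 14.80 in WT arrays. These values were close to the highest signal of each array, 14.91 to 14.97. The basal keratin Krt5 read 12.74, 13.43 and 13.14 in EKO and 13.19, 13.18 and 13.13 in WT arrays. The mean level of the 8 basal markers was 11.28, 11.59 and 11.60 in EKO replicates 1, 2 and 3, and 11.53, 11.44 and 11.32 in the WT replicates. Markers of sebaceous gland, fat, muscle, leukocytes, fibroblasts, vessels and hair follicles were also measured, and in none of these 7 lists did a measured marker lie below the lower quartile of all 6 arrays. WT replicate 1 held the highest value of all 8 muscle markers and the lowest of 11 of 12 hair follicle markers. In such mixed samples, fewer cells of a type and less RNA per cell cannot be told apart. By limma adjusted p, 1 of 18193 genes passed the threshold of 0.05 with all arrays, which was Fabp5, and 42 passed without EKO replicate 2.

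Synthesis of ceramide starts with serine palmitoyltransferase, built from Sptlc subunits. Ceramide synthases (Cers), each of which prefers fatty acids of certain chain lengths, act later, before the desaturase Degs1 completes ceramide. In the living epidermis, ultra-long acyl chains are hydroxylated at the end, linked to linoleate to give acylceramide, and carried into lamellar granules by the transporter Abca12. Ceramidases release sphingosine, which sphingosine kinases turn into the signalling lipid sphingosine 1-phosphate. Fabp5 carries fatty acids in keratinocytes, and fatty acyl-CoA is a substrate of several of these steps.

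No member differed between EKO and WT tumours past the threshold. Of the 35 members 0 passed over all genes, where 0.0055% of all genes did, and the smallest adjusted p was 0.546, for Cers5 (limma, Benjamini-Hochberg). At an unadjusted p under 0.05, 1 member was lower, against 3.7% of all genes, and 0 were higher, against 3.44%. The groups did not overlap for 2 members on the lower side, Cers5 and the acid ceramidase Asah1, against 6.19% of all genes, and for 1 on the higher side, Cers2, against 5.78%. That is 3 of 35, where 12% of all genes did not overlap, so the members stood close to the background.

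Most differences were small, though the members' intervals were wider than those of all genes. A member's 95% interval reached a median of 0.38 to each side on the log2 scale, against 0.27 over all genes. For 31 of 35 members the whole interval lay within 1 of 0, a smaller share than the 94.7% of all genes. The 4 exceptions were Cers4, Cers5, Fa2h and Abca12. For 24 of 35 members the difference itself was under 0.25 in size, against 15579 of 18193 genes, which is a larger share. For 2 members, Cers4 and Cers5, it was at least 0.5, against 725 of 18193 genes. By their means 25 members were lower and 10 higher in EKO tumours, with a median difference of -0.11, while 50% of all genes were lower, with a median of 0.00014. The size of this lower median changed with single arrays: it was -0.04 without EKO replicate 1, -0.03 without WT replicate 2 and -0.22 without WT replicate 3. Without EKO replicate 2, EKO replicate 3 or WT replicate 1 it was -0.14, -0.10 and -0.11.

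**Figure D1:**
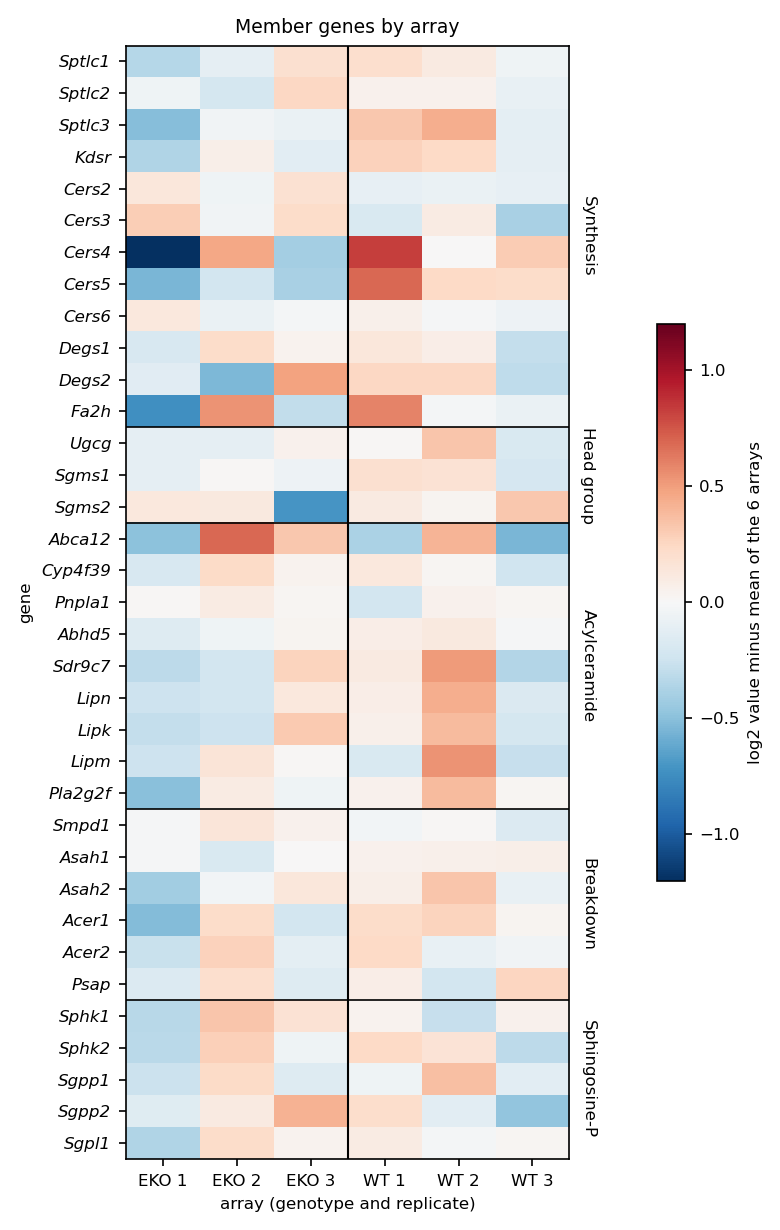
Log2 value of each of the 35 genes minus its mean over the 6 arrays, in a colour scale from blue (lower) to red (higher). Rows are genes sorted by step and columns are the 3 EKO and the 3 WT arrays. EKO 1 holds the lowest value of 17 genes.

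Among the EKO tumours replicate 1 stood lowest. It held the lowest of the 6 values for 17 of the 35 members, or 48.6%, where the same array held the lowest value for 17.3% of all genes. WT replicate 3 held the lowest value of a further 11 members, or 31.4%, against 18.1% of all genes. Averaged over the members, the deviation from the 6-array mean was -0.25, 0.07 and 0.02 in EKO replicates 1, 2 and 3, and 0.12, 0.15 and -0.10 in WT replicates 1, 2 and 3. The EKO and WT ranges of this average overlapped.

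**Figure D2:**
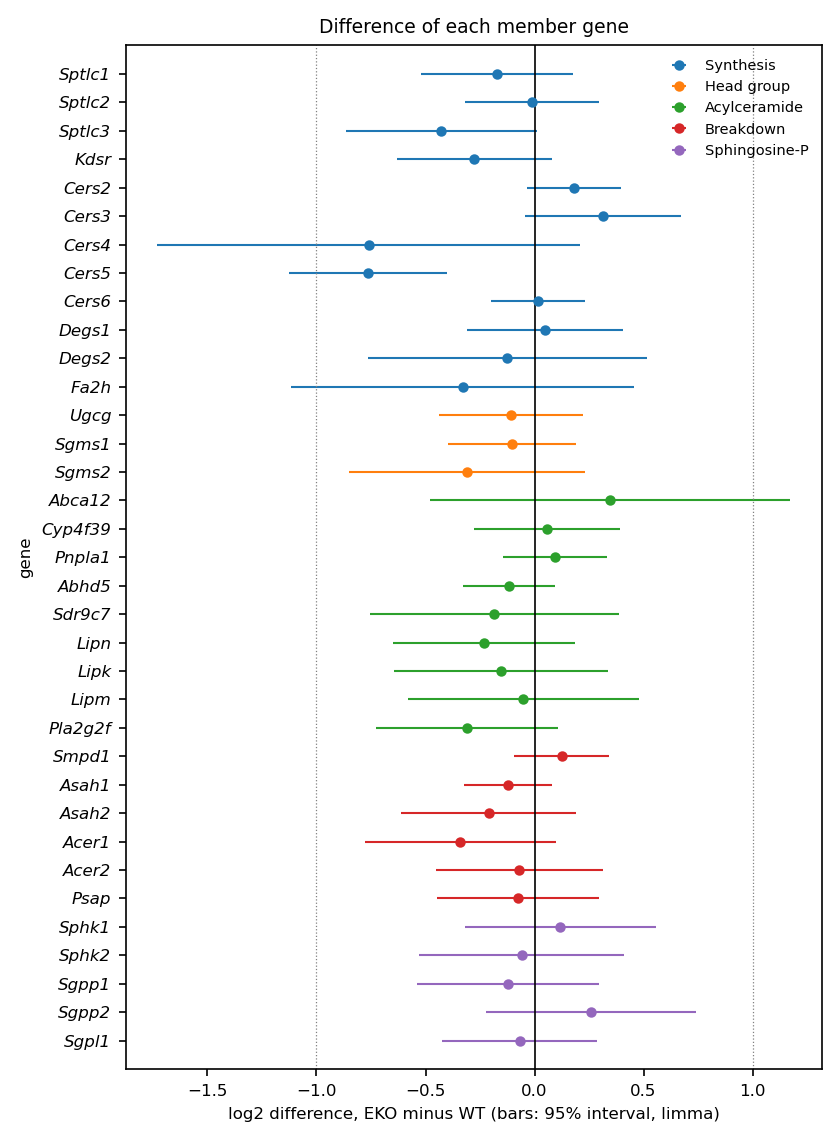
Log2 difference of each of the 35 genes, EKO minus WT, with its 95% interval from limma, coloured by step. Dotted lines mark differences of -1 and 1. The interval of Cers5 lies wholly below 0, from -1.13 to -0.40, before any adjustment for the number of genes.

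Of the 3 members whose groups did not overlap, 2 were ceramide synthases. Cers5, which prefers palmitoyl-CoA, read 9.78, 10.11 and 9.94 in EKO tumours against 11.01, 10.57 and 10.55 in WT tumours. Every EKO value lay below every WT value. The means were 9.95 ± 0.165 in EKO and 10.71 ± 0.264 in WT tumours (SD, n = 3 each), a log2 difference of -0.76 (SE 0.154) or 0.589-fold (limma unadjusted p = 0.00154, adjusted p = 0.546). Over the alternatives its adjusted p ran from 0.193 to 0.998, and without WT replicate 1, its highest array, the difference was -0.61. A second, dim probe set of Cers5 had the same sign, with means of 4.16 in EKO and 4.42 in WT tumours and overlapping groups.

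Cers2, which makes ceramides with very long acyl chains, was higher in every EKO tumour, by a narrow margin. Its values were 7.54, 7.36 and 7.59 in EKO against 7.31, 7.32 and 7.31 in WT tumours. The difference was 0.18 (SE 0.0915, adjusted p = 0.724) and the WT arrays agreed within an SD of 0.00828. Cers3, the epidermal synthase of ceramides with ultra-long acyl chains, read 11.02, 10.68 and 10.95 in EKO and 10.55, 10.83 and 10.34 in WT tumours. EKO replicate 2 lay inside the WT range, and the difference of 0.32 (SE 0.151) did not pass (adjusted p = 0.717); it was 0.20 without WT replicate 3. Cers6, which like Cers5 uses palmitoyl-CoA, differed by 0.01 (SE 0.091), with a 95% interval from -0.20 to 0.23.

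Cers4, a synthase found in sebaceous glands and hair follicles of mouse skin, varied most. It read 9.29, 10.95 and 10.08 in EKO against 11.32, 10.49 and 10.79 in WT tumours. EKO replicate 2 lay above WT replicates 2 and 3, so the groups overlapped. The difference was -0.76 (SE 0.411, adjusted p = 0.756), with an interval from -1.73 to 0.21. Leaving out EKO replicate 1 gave -0.35, and leaving out EKO replicate 2 gave -1.18. All 3 probe sets of Cers4 had the same sign, with differences of -0.76, -0.69 and -0.58.

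**Figure D3:**
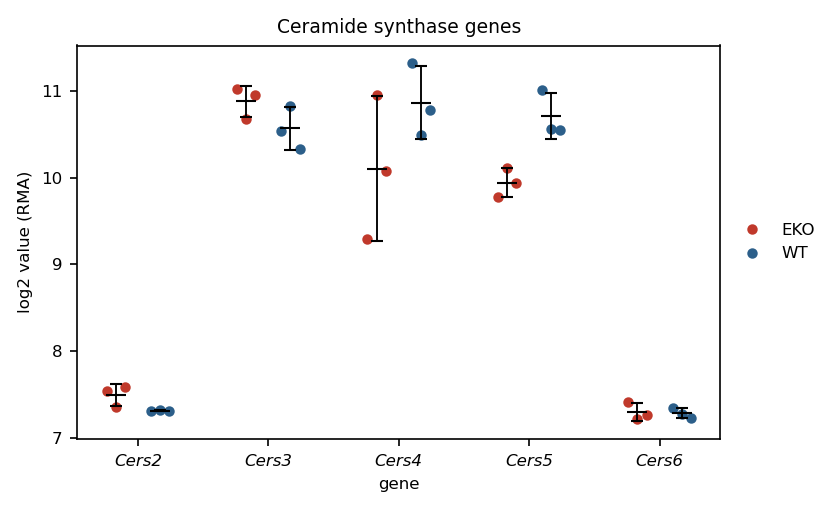
Log2 values of the 5 measured ceramide synthase genes, EKO left of WT for each gene, with points for arrays and bars for mean ± SD (n = 3). Heights are not comparable between genes. Only Cers2 and Cers5 have groups that do not overlap, Cers2 higher and Cers5 lower in EKO tumours.

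The promoters of the 2 synthases whose groups did not overlap, and of Cers4 with the widest spread, are shown for context, as the 250 bases before the gene's start on its own strand, from RefSeq on GRCm38.p6. They lie at chr15:99772516-99772765 on the minus strand (Cers5), chr8:4493155-4493404 on the plus strand (Cers4) and chr3:95314940-95315189 on the plus strand (Cers2, the first of 2 listed promoters). Capitals mark a match to a searched motif.
Cers5: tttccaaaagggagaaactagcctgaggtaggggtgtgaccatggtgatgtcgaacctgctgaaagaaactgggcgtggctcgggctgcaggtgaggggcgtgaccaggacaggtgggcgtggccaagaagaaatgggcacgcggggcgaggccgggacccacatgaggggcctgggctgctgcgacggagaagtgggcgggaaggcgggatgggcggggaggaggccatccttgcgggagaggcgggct
Cers4: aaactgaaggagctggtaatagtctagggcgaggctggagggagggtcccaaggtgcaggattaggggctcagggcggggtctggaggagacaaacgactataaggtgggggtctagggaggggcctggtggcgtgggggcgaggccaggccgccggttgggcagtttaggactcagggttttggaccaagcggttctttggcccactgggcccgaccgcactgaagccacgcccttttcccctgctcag
Cers2: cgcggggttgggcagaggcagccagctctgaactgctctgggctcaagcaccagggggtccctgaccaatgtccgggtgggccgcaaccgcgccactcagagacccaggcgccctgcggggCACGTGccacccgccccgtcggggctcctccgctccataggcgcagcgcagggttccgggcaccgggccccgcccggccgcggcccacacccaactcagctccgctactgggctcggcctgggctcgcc
The G and C share was 65.6% for Cers5, 63.2% for Cers4 and 74.8% for Cers2, against a median of 52.4% over all promoters listed. The capitals in Cers2 are an E-box, CACGTG, and neither of the other 2 windows held any of the 6 motifs searched.

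The 6 motifs were searched on both strands in windows of 300 bases, which reach 50 bases past the start. Of the members, 32 had a promoter listed, with 47 promoters in all, some of them overlapping windows of 1 gene. An AP-1 motif, TGANTCA, the site of the factors that TPA activates, stood in promoters of 6 members (Asah2, Lipn, Psap, Sgms1, Sgms2 and Sphk1) and in those of 8.97% of all genes. The E-box stood in promoters of 6 members (Cers2, Cers6, Degs1, Sgms2, Sgpp2 and Sphk1), against 8.09% of all genes. A SOX motif, ACAATGG, was found for Pnpla1 and Sphk1, against 4.15% of all genes, and a GRHL motif, AACCGGTT, for Sgms1, against 0.174%. The SREBP motif TCACNCCAC and a PPAR motif of the DR1 type matched 0 member promoters, against 1.24% and 0.0396% of all promoters. These are matches of letters, binding was not measured, and no match says only that these letters are not in the window.

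The other enzymes of synthesis did not separate the genotypes. Sptlc3, an alternative catalytic subunit of serine palmitoyltransferase, read 9.27, 9.74 and 9.70 in EKO against 10.12, 10.22 and 9.67 in WT tumours. WT replicate 3 lay among the EKO values, and the difference was -0.43 (SE 0.186, adjusted p = 0.704). A second, dim probe set had the opposite sign (0.19), and the mean over both differed by -0.12, while leaving out EKO replicate 1 gave -0.28. The common subunits Sptlc1 and Sptlc2 differed by -0.17 and -0.01. Kdsr, the reductase of the next step, averaged 9.11 ± 0.216 in EKO and 9.39 ± 0.213 in WT tumours (SD, n = 3 each), a difference of -0.28 (SE 0.151) that came to -0.17 without EKO replicate 1 and -0.058 as a mean over probe sets. The desaturase Degs1, which completes ceramide, differed by 0.05, and Degs2, which also hydroxylates it to phytoceramide, by -0.12, with EKO values from 8.25 to 9.27 that spanned the WT values.

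Fa2h, a fatty acid hydroxylase of sebaceous and epidermal lipids, followed the arrays in much the same way as Cers4. It read 9.64, 10.92 and 10.08 in EKO against 10.98, 10.35 and 10.30 in WT tumours (difference -0.33, SE 0.333). The difference was -0.043 without EKO replicate 1, -0.68 without EKO replicate 2 and -0.11 without WT replicate 1. Both genes were lowest in EKO replicate 1, next lowest in EKO replicate 3 and highest in WT replicate 1 and EKO replicate 2. Most of the 9 measured sebaceous markers moved with them. All 9 had lower EKO means, and 7 were lowest in EKO replicate 1. Their mean level was 8.88, 9.88 and 9.29 in EKO replicates 1, 2 and 3 against 10.03, 9.59 and 9.71 in the WT replicates. Far2, Cidea and Pparg, chosen after their values were seen, stood in exactly the order of Cers4 over the 6 arrays, as did 0.407% of all genes. Hair follicle markers went the other way: 11 of 12 had higher EKO means, and 11 were lowest in WT replicate 1, where Cers4 and Fa2h were highest. Lower EKO means were not particular to sebaceous markers. They were also found for 8 of 8 muscle, 9 of 10 leukocyte, 6 of 7 fat, 6 of 8 fibroblast and 4 of 7 vessel markers. In the keratinocyte lists it was 6 of 22 suprabasal and cornified and 3 of 8 basal markers. WT replicate 1 was also highest for 8 of 8 muscle and 5 of 7 fat markers. No muscle, leukocyte, fat or fibroblast marker was lowest in EKO replicate 1. The part of sebaceous or hair follicle cells in the values of Cers4 and Fa2h was not tested.

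**Figure D4:**
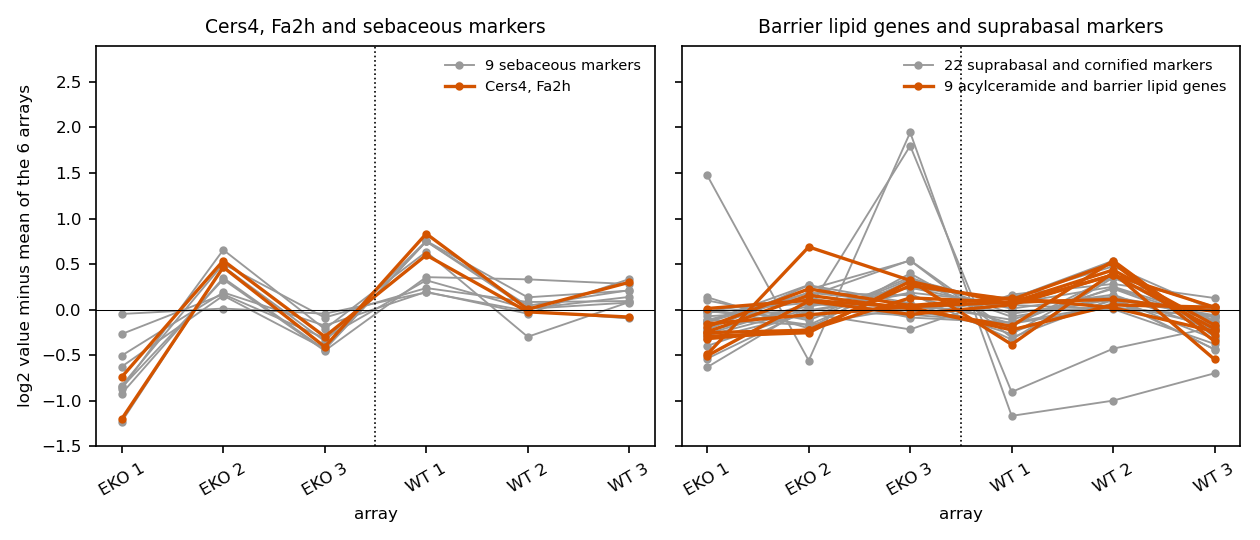
Log2 value minus the mean of the 6 arrays, for EKO 1 to 3 left of WT 1 to 3. Left, Cers4 and Fa2h (orange) and 9 sebaceous markers (grey), most of which dip with Cers4 and Fa2h in EKO 1 and EKO 3. Right, the 9 acylceramide and barrier lipid genes (orange) and 22 suprabasal and cornified markers (grey).

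The enzymes that add a head group had lower EKO means without separating the groups. Ugcg, the glucosylceramide synthase that prepares ceramide for lamellar granules, averaged 9.26 ± 0.0894 in EKO and 9.37 ± 0.261 in WT tumours (SD, n = 3 each), a difference of -0.11. The sphingomyelin synthase Sgms1 differed by -0.10, and all 4 of its probe sets were lower. Its plasma membrane relative Sgms2 read 6.34, 6.32 and 5.50 in EKO against 6.31, 6.24 and 6.53 in WT tumours. The difference of -0.31 (SE 0.23) rested on EKO replicate 3 and was -0.03 without that array.

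For acylceramide genes the highest and lowest arrays came from both genotypes. Of the 9 genes, 6 were highest in WT replicate 2 and 3 in EKO replicate 2, 4 were lowest in EKO replicate 1 and 4 in WT replicate 3. Abca12, the lamellar granule transporter, read 6.76, 7.94 and 7.57 in EKO against 6.87, 7.66 and 6.70 in WT tumours. Each genotype spanned most of the range of the other, and the difference was 0.35 (SE 0.35, adjusted p = 0.856). It was 0.68 without EKO replicate 1, 0.090 without EKO replicate 2, 0.64 without WT replicate 2 and 0.16 without WT replicate 3. Cyp4f39, the mouse counterpart of the human hydroxylase CYP4F22, and Pnpla1, the transacylase that joins linoleate to ceramide, differed by 0.06 and 0.09. Abhd5, the cofactor of Pnpla1, differed by -0.12, with a 95% interval from -0.33 to 0.09. The 95% intervals of Cyp4f39, Pnpla1 and Abhd5 lay between -0.33 and 0.394. Intervals of the ceramide synthase Cers3 and of the elongase Elovl4 reached further from 0. They ran from -0.04 to 0.67 for Cers3 and from -0.78 to 0.04 for Elovl4. That of another elongase, Elovl1, ran from -0.19 to 0.41. Acylceramide synthesis as a whole was therefore not bounded as closely as Cyp4f39, Pnpla1 and Abhd5.

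Several later barrier enzymes were highest in WT replicate 2. Sdr9c7, a dehydrogenase that acts on oxidised acylceramide, lay between 8.90 and 9.49 in EKO and between 8.87 and 9.74 in WT tumours, a difference of -0.18 (SE 0.242). The epidermal lipases Lipn, Lipk and Lipm differed by -0.23, -0.15 and -0.05, and all 3 were highest in WT replicate 2. Of the 22 suprabasal and cornified markers 10 were also highest in that array, against 13.5% of all genes, and 9 in EKO replicate 3. Their mean level ran from 11.93 to 12.35 in EKO and from 11.85 to 12.15 in WT tumours, and their part in these values was not tested. Pla2g2f, a secreted phospholipase of the upper epidermis, read 6.95, 7.55 and 7.41 in EKO against 7.51, 7.84 and 7.48 in WT tumours, a difference of -0.31 (SE 0.177), which was -0.13 without EKO replicate 1 and -0.19 without WT replicate 2.

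Breakdown enzymes were also close between the genotypes. Acer1, the alkaline ceramidase of epidermis and sebaceous gland, read 10.47, 11.21 and 10.77 in EKO against 11.21, 11.25 and 11.02 in WT tumours. EKO replicate 2 reached the WT range, and the difference was -0.34 (SE 0.186, adjusted p = 0.756), or -0.17 without EKO replicate 1 and -0.54 without EKO replicate 2. Asah1, the lysosomal acid ceramidase, read 10.32, 10.15 and 10.34 in EKO against 10.38, 10.40 and 10.40 in WT tumours. Its groups did not overlap, but they lay -0.12 apart (SE 0.0864, adjusted p = 0.806). Smpd1, the acid sphingomyelinase, was 0.12 higher by its mean, Psap, the precursor of the saposins that help lysosomal hydrolases, differed by -0.08, and the neutral and Golgi ceramidases Asah2 and Acer2 differed by -0.21 and -0.07.

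By their brightest probe sets, genes of sphingosine phosphate metabolism differed by at most 0.26. Sgpp2, a sphingosine phosphate phosphatase, read 9.85, 10.11 and 10.41 in EKO against 10.20, 9.87 and 9.53 in WT tumours, with overlapping groups (difference 0.26, SE 0.205). With 1 array left out, that difference ran from 0.090 without WT replicate 3 to 0.43 without WT replicate 1. The other phosphatase, Sgpp1, differed by -0.12. The kinases Sphk1 and Sphk2, which make sphingosine phosphate, differed by 0.12 and -0.06. The lyase Sgpl1, which degrades it irreversibly, differed by -0.07. Of these 5 genes, 4 were lowest in EKO replicate 1.

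Probe sets of 1 gene did not always give like values. Of the members, 23 had more than 1 probe set, and for 16 of these all probe sets had the same sign. Over all 70 probe sets, the groups did not overlap for 7 on the lower side and 2 on the higher side, where 6.83% and 5.5% of all probe sets with 1 symbol did so. The second probe set of Sgpl1 read 4.54, 5.94 and 5.98 in EKO against 6.54, 6.50 and 6.09 in WT tumours, a difference of -0.89, while its brightest differed by -0.07. For Sgpp1 the third probe set differed by -0.82, against -0.12 for the brightest. The mean over probe sets gave -0.48 for Sgpl1 and -0.37 for Sgpp1. These examples were chosen for their size after the values were seen. The counts above and below were larger shares than over all probe sets on the lower side, and smaller shares on the higher side. Second probe sets of Pla2g2f and Acer1 differed by -0.61 and -0.54, and that of Smpd1 by 0.27. None of the 70 passed in a fit over all probe sets (smallest limma adjusted p = 0.571). At an unadjusted p under 0.05, 6 of the 70 were lower, against 4.24% of all probe sets, and 1 was higher, against 3.19%, or 7 in all, against 7.43%. Which transcripts the differing probe sets of a gene match was not examined.

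Outside the 35 members, 50 further genes of the pathway were listed and 44 were measured. Of these 0 passed over all genes, 21 were higher and 23 lower by their means, and the median difference was -0.02. At an unadjusted p under 0.05, 3 were higher, against 3.44% of all genes, and 5 lower, against 3.7%. The groups did not overlap for 5 on the higher side, against 5.78% of all genes, and for 6 on the lower side, against 6.19%. These shares of the 44 were larger than those of all genes, in a list written with earlier results of these data known. Sptssb, a small subunit of serine palmitoyltransferase that widens its choice of acyl-CoA, differed most. It read 11.13, 8.44 and 11.55 in EKO against 5.23, 7.16 and 8.41 in WT tumours. The lowest EKO value lay just above the highest WT value, both groups spread widely, and the difference of 3.44 (SE 1.01) did not pass (adjusted p = 0.621). Without EKO replicate 2 it was 4.41 (adjusted p = 0.182), and over its alternatives the adjusted p ran from 0.182 to 0.998. Tgm3, a transglutaminase of cornification and 1 of the 22 suprabasal and cornified markers, stood in exactly the same array order, and was picked out after its values were seen. It read 11.60, 9.57 and 12.07 in EKO against 8.96, 9.13 and 9.43 in WT tumours, a difference of 1.91 (SE 0.59, adjusted p = 0.625). How many of all genes stood in that array order was not counted. Of the 22 markers 16 were higher and 6 lower by their means, with a median difference of 0.05, and their part in the values of Sptssb was not tested.

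Nipal4, a membrane protein that the epidermal barrier needs, read 9.30, 9.41 and 9.33 in EKO against 9.01, 8.99 and 8.99 in WT tumours, a difference of 0.35 (SE 0.078), with an adjusted p = 0.558. Its arrays agreed closely within each genotype, but the mean over its probe sets differed by 0.085. The lipoxygenases Alox12b and Aloxe3, which oxidise acylceramide, differed by 1.07 (SE 0.437) and 0.56 (SE 0.287), and the groups of Aloxe3 did not overlap. Among genes with lower EKO means, Elovl6, which elongates palmitoyl-CoA, read 11.42, 12.52 and 11.94 in EKO against 13.11, 12.57 and 12.63 in WT tumours, which is a difference of -0.81 (SE 0.282), with an adjusted p = 0.644. Like Cers5, it was lowest in EKO replicate 1 and highest in WT replicate 1. Of the 9 sebaceous markers 7 were lowest in EKO replicate 1, against 17.3% of all genes. For the highest value, 6 had it in WT replicate 1, 2 in EKO replicate 2 and 1 in WT replicate 3. Every EKO value of Elovl6 and of Cers5 lay below every WT value. The mean level of the sebaceous markers in EKO replicate 2 was 9.88, above WT replicates 2 and 3 at 9.59 and 9.71. How many of all genes were lowest in EKO replicate 1 and highest in WT replicate 1 was not counted. The part of sebaceous cells in the values of Elovl6 and Cers5 was not tested. The elongases Elovl4, of ultra-long chains, and Elovl7 differed by -0.37 and -0.25.

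Of the remaining genes with an unadjusted p under 0.05, the sphingomyelinase-like Smpdl3a and Smpdl3b differed by -0.64 and -0.39. The groups overlapped for Smpdl3a and not for Smpdl3b. The sphingosine phosphate receptor gene S1pr5 read 6.84, 7.13 and 6.66 in EKO against 7.26, 7.41 and 7.16 in WT tumours, without overlap (difference -0.40, SE 0.138, adjusted p = 0.642). Plpp3, a lipid phosphate phosphatase, differed by -0.34, also without overlap. Ces2f, of the carboxylesterase family, B4galt6, which makes lactosylceramide, and the secreted phospholipase Pla2g2e differed by 0.78, 0.40 and 0.27, each with overlapping groups.

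**Figure D5:**
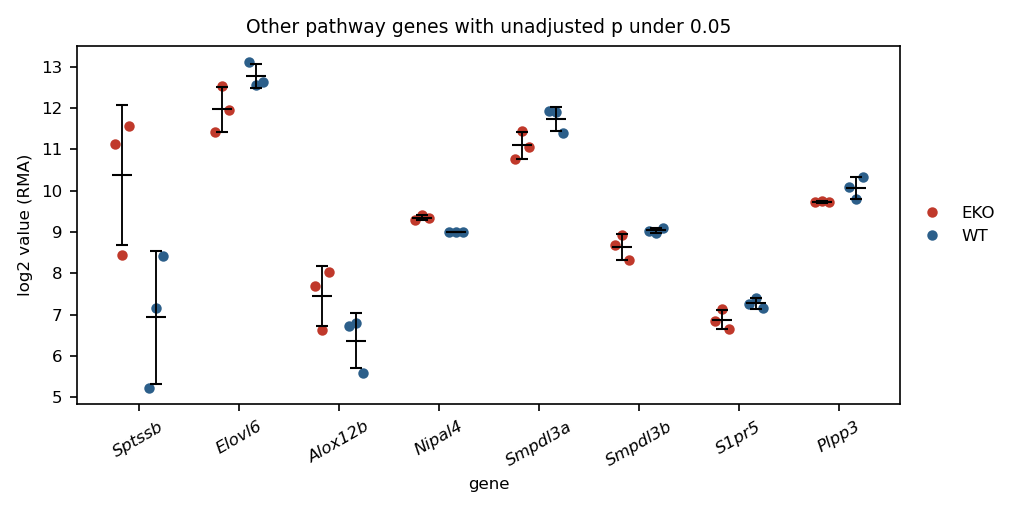
Log2 values of the 8 further pathway genes with an unadjusted limma p under 0.05, EKO left of WT for each gene, with points for arrays and bars for mean ± SD (n = 3). Heights are not comparable between genes. Sptssb spreads from 8.44 to 11.55 in EKO and from 5.23 to 8.41 in WT tumours.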

How the data were processed

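Per the submitters' processing notes, RMA and Partek 6.6 produced the values that the authors deposited, which are on a log2 scale, 1 per probe set and array. RMA generally corrects background, quantile-normalizes and summarises probes; its settings here are unknown. The 6 columns were used as deposited. Without scan dates, no test of batch could be made. The array held 45101 probe sets: 64 were controls, 34945 carried 1 gene symbol in the platform annotation, 932 several and 9160 none; only those with 1 symbol were used, without a filter on low values. EKO was compared with WT, 3 arrays each, with limma's moderated two-sided test (version 3.58.1, R 4.3.3), adjusting p-values over 18193 genes by Benjamini-Hochberg, with a threshold of 0.05. Differences are EKO minus WT. The procedure was tested on simulated data.

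All 35 members are named. Of the further pathway genes, those with an unadjusted p under 0.05 and the 6 largest others are named, and Elovl1 for its interval. The members, steps, marker lists and motifs were chosen with earlier results of these data known, so list counts and medians are descriptions. The titles call the replicates biological, and replicate numbers are not said to pair mice. Pairs with 1 number did not deviate together (correlations -0.07, -0.09 and -0.34). The alternatives were a replicate block, only the upper 50% of means, a mean over probe sets, centred array medians, robust variances with an intensity trend, a second quantile normalization, each array left out and a threshold of 0.1. The same settings for the further pathway genes were added after seeing the data. Promoters are from RefSeq, GRCm38.p6.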

Additional observations from a re-analysis of the deposited data

How the results depend on the processing

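No member passed the threshold under any of the 12 alternative fits or at a threshold of 0.1, and the smallest adjusted p of a member was 0.193, for Cers5 without EKO replicate 2. The number of genes past the threshold stayed at 1 except for 42 without EKO replicate 2 and 2 without WT replicate 2. The replicate block left 1 gene, changed no call, and moved the adjusted p of Cers5 to 0.717. The median over the members was negative throughout, from -0.22 to -0.03 with an array left out. Of the 35 members, 21 kept the sign of their difference in every fit that held them (11 fits for Sgms2 and Lipn, which the filter on dim probe sets removed, and 12 for the others), 15 lower and 6 higher, and the 14 others, the largest of them 0.18 in size, did not. With 1 array left out, the differences that changed sign ran as follows: Acer2 -0.23 to 0.046, Cers6 -0.045 to 0.057, Cyp4f39 -0.047 to 0.17, Degs1 -0.081 to 0.16, Degs2 -0.40 to 0.11, Lipm -0.20 to 0.21, Pla2g2e -0.24 to 0.92, Psap -0.21 to 0.032, Sdr9c7 -0.40 to 0.026, Sgpl1 -0.19 to 0.096, Sgpp1 -0.27 to 0.031, Sphk1 -0.017 to 0.31, Sphk2 -0.23 to 0.086, Sptlc2 -0.14 to 0.090, Ugcg -0.23 to 0.031. The sign also turned for Cers6 after repeated quantile normalization (-0.0052) and, with a mean over probe sets, for Degs1 (-0.069) and Sphk1 (-0.063); the cause was not tested. The number of arrays and the lack of detection calls limit what can be said of small differences and of dim probe sets.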
